A study of Rattus norvegicus with 2 samples.

Results

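The miR-15, miR-16, miR-195 and miR-497 family was followed in exosomal small RNA of neonatal rat cardiomyocytes. Its members were all rows of the count table named miR-15a, miR-15b, miR-16, miR-16-1, miR-16-2, miR-195a, miR-195b, miR-497, miR-497a or miR-497b, with any arm. This name rule found 9 of the 635 rows, listed as mmu-miR-15a-5p, mmu-miR-15b-5p, mmu-miR-15b-3p, mmu-miR-16-5p, mmu-miR-16-2-3p, mmu-miR-195a-5p, mmu-miR-195a-3p, mmu-miR-195b and mmu-miR-497a-5p. The mouse prefix mmu is left out below. The table has no row for miR-15a-3p, miR-16-1-3p, miR-497a-3p or miR-497b. The cells came from hearts of 1- to 2-day-old Wistar rats, were enriched by differential adhesion and were plated with bromodeoxyuridine, which acts against dividing non-muscle cells. After 24 h of serum starvation, cultures were kept for 48 h and then gave NC-Exo where no angiotensin II (Ang II) was added, and HC-Exo where Ang II was present at 1 μmol/L. Exosomes were taken from the medium with an isolation reagent, and 1 small RNA library was sequenced per condition. No difference between the 2 kinds of exosome therefore has a replicate check, no p-value is given, and every interval and floor covers counting error alone, since PCR can copy 1 molecule into several reads.

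A miRNA is a short RNA that guides Argonaute to mRNAs paired with its seed, the bases near its 5′ end. Members of the miR-15 family share 1 seed and are known to lower cyclins, checkpoint kinases and the survival factor BCL2, so that they slow the cell cycle. In the heart, miR-195 is known to rise after birth as cardiomyocytes stop dividing, and an excess of it enlarges the heart in mice. Each hairpin gives a 5p and a 3p strand, and in this family the 5p strand carries the family seed and is the usual guide.

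The rat mature sequences of the family were taken from RefSeq (assembly GRCr8) to show what the rows share and where they part. Of the 9 rows, 7 were matched, 3 by the same name and 4 to the rat entry without the mouse locus letter or number. The remaining 2 rows, miR-15a-5p and miR-195b, have no entry there. The reads themselves were counted under mouse names, and capitals mark the seed, bases 2 to 8 from the 5′ end.
miR-16-5p: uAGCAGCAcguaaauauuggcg
miR-195-5p: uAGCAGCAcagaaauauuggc
miR-15b-5p: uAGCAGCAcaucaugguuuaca
miR-497-5p: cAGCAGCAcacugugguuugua
miR-15b-3p: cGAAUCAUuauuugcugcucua
miR-16-3p: aCCAAUAUuauugugcugcuu
All 4 of the 5p strands shown have the seed AGCAGCA, and neither of the 3p strands shown does. Outside the seed they differ. Over 21 bases compared without gaps, miR-16-5p and miR-195-5p differed at 2 positions, whereas miR-15b-5p differed from miR-16-5p at 8 of 22 and from miR-497-5p at 6 of 22, of which 1 is the first base and 5 follow the seed. How many mismatches were allowed in counting is not given in the sources used here, and a split of reads between the near-identical miR-16-5p and miR-195a-5p was not tested.

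The hairpins lie in pairs. On GRCr8, miR-15b-5p is at chr2:155555197-155555218 and miR-16-5p at chr2:155555343-155555364, both on the plus strand, and 51 bases separate the 2 hairpins. The bounds of Smc4, the gene of a condensin subunit, span both. The mature miR-497-5p is at chr10:55450172-55450193 and miR-195-5p at chr10:55450509-55450529, also on the plus strand, with 255 bases between the hairpins and no gene listed across both. In mammals, miR-16-5p also comes from a further hairpin beside miR-15a, and the counts do not tell these sources apart.

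The miRNA reads came to 102608 for NC-Exo and 133155 for HC-Exo. Values are given as reads per 1000000 miRNA reads of the library (RPM), so that 1 read equals 9.75 RPM for NC-Exo and 7.51 for HC-Exo. Each read stands for 1 short strand, and RPM is therefore compared between rows without a length correction. The cardiomyocyte label was checked against muscle miRNAs. All 7 of the muscle list had rows, holding 16.9% of NC-Exo reads and 18.4% of HC-Exo reads, beside 9.11% and 6.68% for the endothelial miR-126a arms. The list of smooth muscle and fibroblast miRNAs had 3.81% and 3.86%. Most of the muscle reads were miR-1a-3p, with 23271 HC-Exo reads and, taking HC-Exo over NC-Exo, a log2 ratio of 0.11 (95% exact interval 0.08 to 0.14). Of the 7 muscle rows, 6 were higher in HC-Exo, beside 56.2% of all 340 rows with at least 10 reads over both libraries, and the median log2 ratio was 0.51, beside 0.10. At least 2-fold higher were 3 of them, beside 11.5% of the 340 rows. These were the skeletal muscle miR-206-3p with 14 and 57 reads, and miR-499-5p with 10 and 35 and miR-208a-3p with 9 and 24, which lie in myosin genes. Their log2 ratios were 1.65 (0.79 to 2.61), 1.43 (0.39 to 2.61) and 1.04 (-0.12 to 2.33). Of these, miR-208a-3p passed the limit of 10 reads through HC-Exo, so the count of 3 gives no support by itself. The part of the difference in muscle miRNAs in the family's reads was not tested. More vesicles from 1 cell type and more of a miRNA per vesicle cannot be told apart in such bulk libraries.

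The family as a whole took a larger part of the miRNA reads in HC-Exo than in NC-Exo. Its 9 rows held 182 NC-Exo reads and 403 HC-Exo reads. The family share was 0.177% for NC-Exo (95% Clopper-Pearson interval 0.153 to 0.205%) against 0.303% for HC-Exo (0.274 to 0.334%). The summed level was 1774 RPM against 3027 RPM. HC-Exo over NC-Exo, the ratio was thus 1.71 (95% exact interval 1.43 to 2.04). The intervals of the 2 libraries do not overlap. By RPM, 8 of the 9 rows were higher in HC-Exo, the exception being miR-195b with 2 reads and 0. This count takes in sparse rows such as miR-195a-3p, with 0 and 1 reads. Reads were found for 515 rows in NC-Exo and for 569 in HC-Exo, the deeper library. No share of all rows was worked out in the same way, so the 8 rows give no support by themselves. Once 10 reads in sum were asked of a row, 5 family rows remained. All 5 were higher in HC-Exo, beside 56.2% of the 340 rows left in all. Of these 5 rows, 3 reached 10 reads only through HC-Exo, so this count gives no support by itself either. Most of the added reads were those of miR-16-5p, with 59.8% of the 1253 RPM by which the family differed, followed by miR-15b-3p with 16.2%. Without miR-16-5p, the other 8 rows had 67 and 154 reads and a ratio of 1.77 (1.32 to 2.40).

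The leading member was miR-16-5p, which is known to be abundant in many tissues and in red blood cells. It was read 115 times in NC-Exo and 249 times in HC-Exo. Its level was 1121 RPM in NC-Exo (95% interval 925 to 1345) and 1870 RPM in HC-Exo (1645 to 2117), with no overlap of the intervals. This is a ratio of 1.67, a log2 ratio of 0.74 (0.41 to 1.07). It ranked 79 of all rows in NC-Exo and 63 in HC-Exo, where let-7j with 259 reads and miR-669a-3p with 248 were next to it. The most abundant muscle miRNA, miR-1a-3p, had 93.5 times as many reads in HC-Exo.
The 3p strand of this hairpin, miR-16-2-3p, is usually the degraded passenger. It was read 3 times in NC-Exo and 13 times in HC-Exo. Its log2 ratio of 1.74 was the largest in the family among rows with at least 10 reads over both libraries, but its interval ran from -0.12 to 4.19 and included 0.

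**Figure D1:**
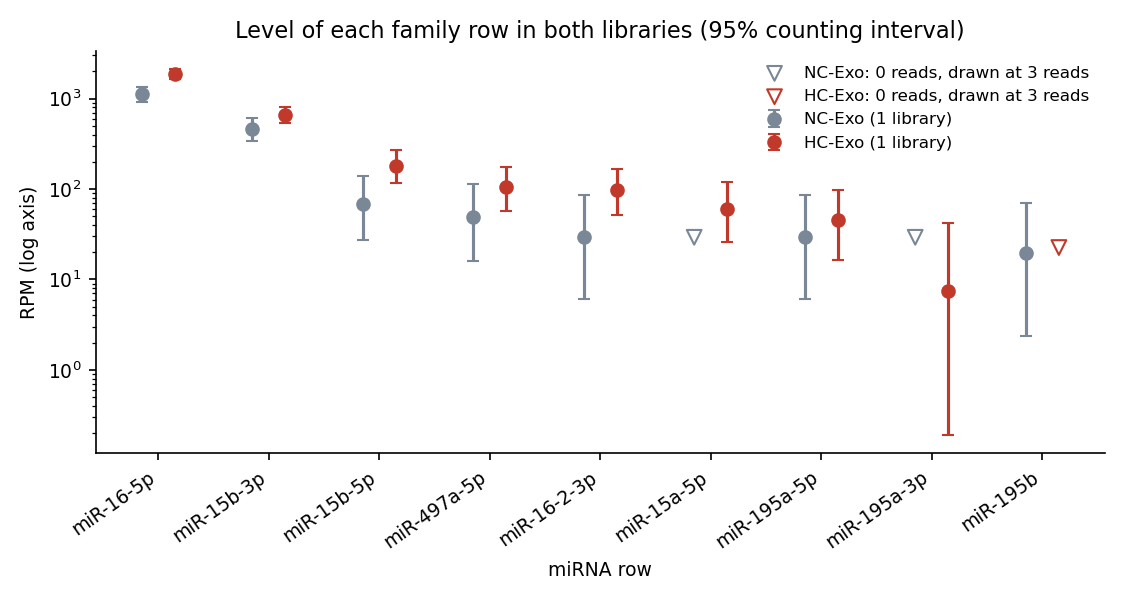
Level of each of the 9 family rows in RPM on a log axis, with NC-Exo in grey and HC-Exo in red and bars for the 95% exact counting interval of the 1 library. Open triangles are rows with 0 reads, drawn at the floor of 3 reads. The intervals part for miR-16-5p and overlap for the other rows with reads in both libraries.

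Both strands of miR-15b were detected in both libraries. The 5p strand, the guide with the family seed, was read 7 times in NC-Exo and 24 times in HC-Exo, which is 68.2 and 180 RPM. The log2 ratio was 1.40 (95% exact interval 0.14 to 2.86). The 3p strand was read 47 times in NC-Exo and 88 times in HC-Exo, or 458 and 661 RPM. Its log2 ratio of 0.53 had an interval from 0.0021 to 1.07, which included 0 under each of the 5 other scalings tried. Thus miR-15b-3p had more reads but the smaller ratio, and the ratios of the strands differed by -0.87 on the log2 scale with an interval from -2.43 to 0.52.

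The related miR-15a-5p was seen only in HC-Exo. It had 0 reads in NC-Exo, which the floor of 3 reads sets at 29.2 RPM, and 8 reads in HC-Exo, which is 60.1 RPM. Taken over this floor the ratio was 2.05, while counting error in both libraries allowed a ratio down to 1.32. With 8 reads in all it stayed under the limit of 10 reads used for counts of rows.

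The miR-195 and miR-497 rows were sparse. The row miR-497a-5p was read 5 times in NC-Exo and 14 times in HC-Exo. Its log2 ratio was 1.11 (-0.45 to 2.94). For miR-195a-5p, the member best known from the growing heart, 3 and 6 reads were counted, which is 29.2 and 45.1 RPM. Its log2 ratio of 0.62 had an interval from -1.60 to 3.25, so a difference was not detectable at this depth. The remaining rows of this group, miR-195a-3p with 0 and 1 reads and miR-195b with 2 and 0, were at or under the floor in both libraries and have no ratio. Together these 4 rows held 10 NC-Exo reads and 21 HC-Exo reads, and their ratio was 1.62 (0.73 to 3.85).

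**Figure D2:**
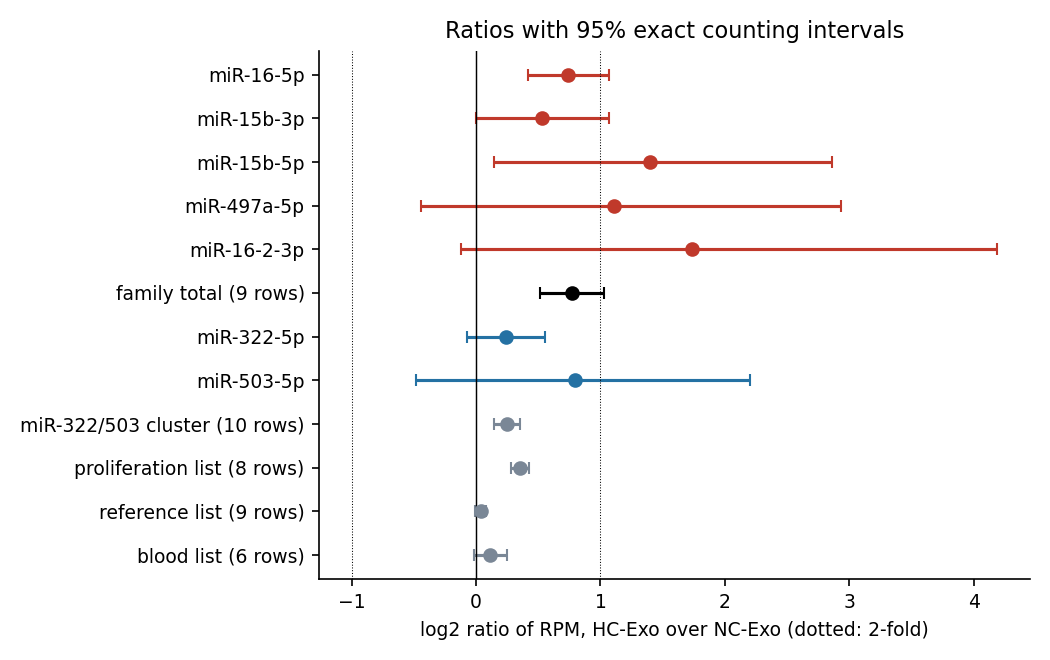
Log2 ratio of RPM in HC-Exo over NC-Exo with 95% exact counting intervals, for the 5 family rows with at least 10 reads (red), the family total (black), the rows with a related seed (blue) and summed lists (grey). Dotted lines mark 2-fold. The family total of 0.77 lies to the right of the 4 summed lists, and the intervals of the sparse rows are wide.

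In both libraries the order of levels began with miR-16-5p, miR-15b-3p, miR-15b-5p and miR-497a-5p. In NC-Exo, miR-16-5p had 2.45 times the reads of miR-15b-3p (1.73 to 3.51), and in HC-Exo 2.83 times (2.21 to 3.65). The step from miR-15b-3p to miR-15b-5p was also beyond counting error. The next step was not, as miR-15b-5p had 1.71 times the reads of miR-497a-5p in HC-Exo with an interval from 0.85 to 3.58. Further down in HC-Exo, the RPM intervals of miR-497a-5p (57.5 to 176), miR-16-2-3p (52.0 to 167), miR-15a-5p (25.9 to 118) and miR-195a-5p (16.5 to 98.1) overlapped each other. Those of miR-497a-5p and miR-16-2-3p lay above the upper bound of 41.8 RPM for miR-195a-3p. Although miR-15b and miR-16 hairpins are neighbours, miR-16-5p had 16.4 times the reads of miR-15b-5p in NC-Exo (7.72 to 41.8) and 10.4 times in HC-Exo (6.81 to 16.5).
The shares of the members within the family overlapped in their intervals between NC-Exo and HC-Exo. The share of miR-16-5p in the family reads was 63.2% in NC-Exo (55.7 to 70.2%) and 61.8% in HC-Exo (56.8 to 66.6%). That of miR-15b-3p was 25.8% (19.6 to 32.8%) and 21.8% (17.9 to 26.2%). The guide miR-15b-5p had 3.85% (1.56 to 7.76%) and 5.96% (3.85 to 8.73%). Of the 10 pairs among the 5 rows with at least 10 reads, 0 had a difference of log2 ratios whose 95% interval left out 0. These intervals are wide, and the narrowest, between miR-15b-3p and miR-16-5p, ran from -0.84 to 0.43.

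**Figure D3:**
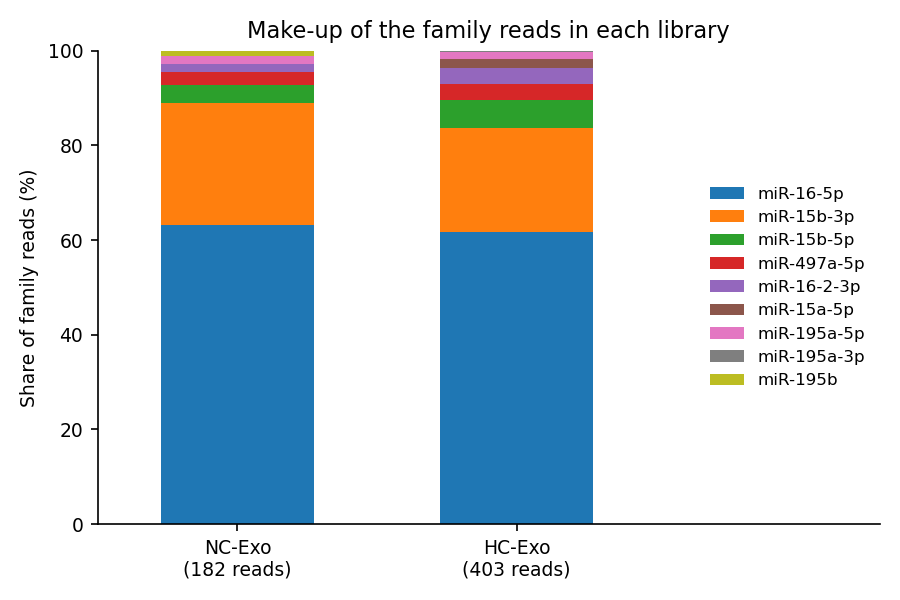
Share of each row in the family reads of NC-Exo (182 reads) and HC-Exo (403 reads), as stacked bars in percent. In both bars miR-16-5p fills more than 60% and miR-15b-3p more than 20%.

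With 1 library per condition, rows were counted by the size of their ratio. Of the 340 rows with at least 10 reads over both libraries, 11.5% were at least 2-fold higher in HC-Exo and 4.12% at least 2-fold lower. Among the 5 family rows with as many reads, 3 were at least 2-fold higher (miR-15b-5p, miR-16-2-3p and miR-497a-5p) and 0 lower. All 5 had a ratio above 1, as did 56.2% of the 340 rows. The 3 past 2-fold had fewer than 10 reads in NC-Exo and passed the limit on reads through HC-Exo. Neither their count nor the count of ratios above 1 therefore gives support by itself. Adding 5 reads to each library brought all 3 under 2-fold, with log2 ratios of 0.90, 0.79 and 0.55, and upper-quartile scaling did so for miR-497a-5p, with 0.99. With at least 10 reads asked of each library, miR-15b-3p and miR-16-5p were left, and 0 of these 2 were past 2-fold, beside 2.83% of the 247 rows left in all.
The interval of the ratio lay above 1 in 3 of the 5 family rows (miR-15b-3p, miR-15b-5p and miR-16-5p), beside 20% of the 340 rows. Of these, miR-15b-5p had passed the limit on reads through HC-Exo, and the interval of miR-15b-3p included 1 under each of the 5 other scalings, which leaves miR-16-5p. This count compares the 2 libraries and not the conditions. Among the 135 rows that reached 100 reads over both libraries, the median log2 ratio was 0.10. By log2 ratio miR-16-5p ranked 7 and miR-15b-3p ranked 16 of these 135.

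**Figure D4:**
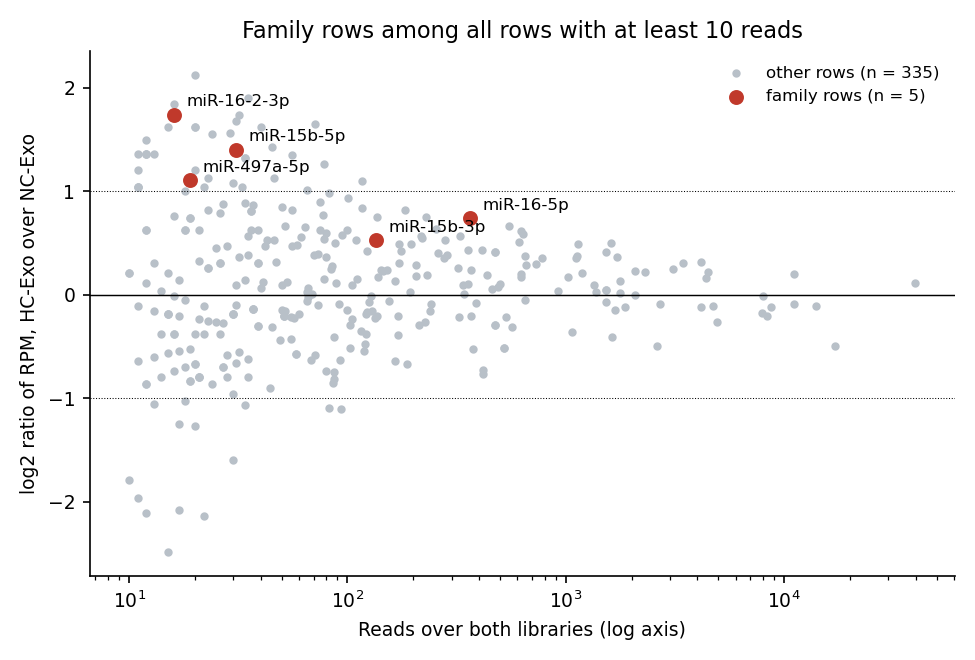
Log2 ratio of RPM in HC-Exo over NC-Exo against the reads over both libraries on a log axis, for the 340 rows with at least 10 reads, with libraries under 3 reads set at 3. The 5 family rows (red) are all above 0, 3 of them above 2-fold at the left, where ratios of the other rows (grey) are also widely spread.

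The strands of the family were used unevenly. The 3p strand made up 87.0% of the miR-15b reads in NC-Exo (Clopper-Pearson, 75.1 to 94.6%) and 78.6% in HC-Exo (69.8 to 85.8%), so that the presumed passenger outnumbered the guide in both libraries. By contrast, miR-16-2-3p was 2.54% (0.53 to 7.25%) and 4.96% (2.67 to 8.34%) of the reads of miR-16-5p and miR-16-2-3p. Here the 5p count may also hold strands of the hairpin beside miR-15a. Among all hairpins that had a row for each strand and at least 10 reads, 81 (56.6%) had more 3p than 5p reads in both libraries, 55 had more 5p reads in both and 7 were mixed, so either order was common in the table. For the miR-322 and miR-503 hairpins, the 3p share was 49.5% and 96.3% in NC-Exo and 46.9% and 94.0% in HC-Exo. The strand shares of NC-Exo and HC-Exo overlapped in their intervals for these 4 hairpins.

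**Figure D5:**
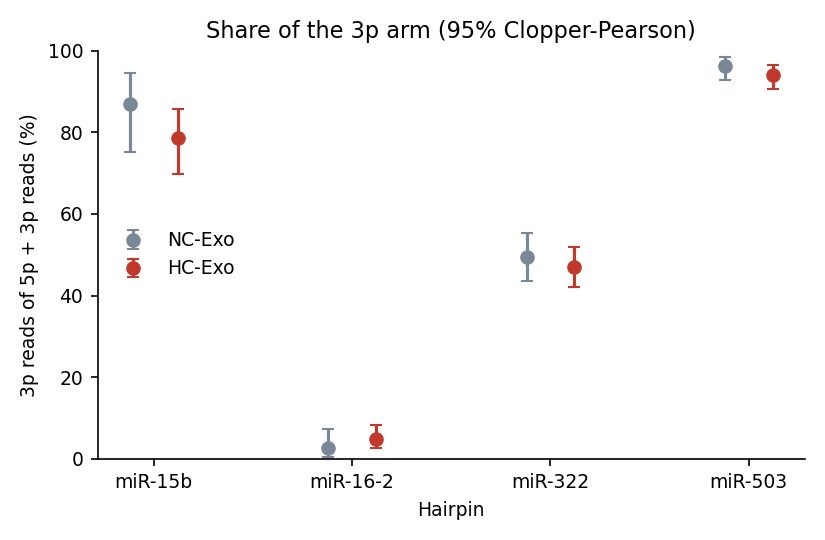
Share of 3p reads among the 5p and 3p reads of 4 hairpins, in percent with 95% Clopper-Pearson intervals, in NC-Exo (grey) and HC-Exo (red). The 3p strand leads for miR-15b and miR-503, the 5p strand for miR-16-2, and the intervals of the libraries overlap at each hairpin.

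Outside the family, rows with the same seed were searched among the 312 rows whose name has a rat sequence. Only miR-322-5p had the whole seed, and miR-503-5p had bases 2 to 7 of it. These strands come from the miR-322 and miR-503 cluster, at chrX:137726198-137726219 and chrX:137725899-137725921 on the minus strand of GRCr8, and they are shown to compare their seeds with those above.
miR-322-5p: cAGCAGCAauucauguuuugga
miR-503-5p: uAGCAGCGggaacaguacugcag
The level of miR-322-5p was 1413 RPM in NC-Exo and 1667 RPM in HC-Exo, the latter from 222 reads. Its log2 ratio was 0.24 (95% exact interval -0.07 to 0.55), and that of miR-16-5p was larger by 0.50 (0.04 to 0.96). Their levels did not differ beyond counting error, with 0.793 reads of miR-16-5p for each read of miR-322-5p in NC-Exo (0.62 to 1.02) and 1.12 in HC-Exo (0.93 to 1.35). With 8 and 18 reads, miR-503-5p had a log2 ratio of 0.79 (-0.48 to 2.20). The 5 rows shown to carry the whole seed (miR-16-5p, miR-15b-5p, miR-195a-5p, miR-497a-5p and miR-322-5p) held 275 reads against 515, a ratio of 1.44 (1.24 to 1.68). Of these reads, miR-322-5p had 52.7% in NC-Exo (46.6 to 58.8%) and 43.1% in HC-Exo (38.8 to 47.5%), and miR-16-5p had 41.8% and 48.3%.
The 10 rows of the miR-322, miR-503, miR-351, miR-542 and miR-450 cluster summed to 1162 and 1792 reads, with a log2 ratio of 0.25 (0.14 to 0.36). The log2 ratio of the miR-15 family total was larger than that of this cluster sum by 0.52 (0.24 to 0.80). The largest part of the sum was miR-351-5p, with 707 of the 1792 HC-Exo reads and a log2 ratio of 0.38 (0.20 to 0.55). Among cluster rows with at least 10 reads over both libraries, log2 ratios ran from -0.55 for miR-351-3p to 0.79 for miR-503-5p.

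Because the miR-15 family slows the cell cycle, miRNAs linked to cell cycle entry were set beside it, such as miR-17-5p, miR-19b-3p and miR-199a-3p. Of the 14 on this list, 8 had rows and 7 had at least 10 reads, with 6 of the 7 higher in HC-Exo, beside 56.2% of all 340 rows, and 0 at least 2-fold higher, beside 11.5%. Their median log2 ratio was 0.41, beside 0.10 over all 340 rows. The list summed to 2490 and 4129 reads, with a log2 ratio of 0.35 (0.28 to 0.43), and the family total exceeded it by 0.42 (0.15 to 0.69). The family total thus had a larger ratio than the list sum. The largest part of that sum was miR-92a-3p, with 1884 of the 4129 HC-Exo reads and a log2 ratio of 0.25 (0.15 to 0.36). Among the 7 rows, log2 ratios ran from -0.74 for miR-18a-5p to 0.62 for miR-20a-5p.

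Since miR-16-5p often serves as a reference in exosome work, it was compared with 9 other reference miRNAs. These 9 took 7.13% and 7.31% of the reads, with NC-Exo given first, and a summed log2 ratio of 0.04 (-0.01 to 0.08). The largest part was let-7a-5p, with 3964 of the 7321 NC-Exo reads and 4745 of the 9740 HC-Exo reads. Row by row, 6 of the 9 were higher in HC-Exo, beside 56.2% of all 340 rows. The median log2 ratio of the 9 was 0.20, beside 0.10. The log2 ratio of miR-16-5p was larger than that of their sum by 0.70 (0.37 to 1.04). Taken singly, its ratio was larger beyond counting error than that of 6 of the 9, among them miR-191-5p with a difference of 0.61 (0.25 to 0.97) and let-7a-5p with 0.86 (0.52 to 1.19). For miR-423-3p, miR-93-5p and miR-425-5p the interval of the difference included 0, with -0.01 (-0.55 to 0.52), 0.08 (-0.34 to 0.50) and 0.21 (-0.85 to 1.23).

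Blood miRNAs were read beside miR-16-5p, which red blood cells hold in plenty. Of 8 on the list, 7 had rows, miR-144-3p had none, and miR-486a-5p and miR-486b-5p carried identical counts and were taken once. They summed to 811 reads for NC-Exo and 1139 for HC-Exo, or 0.790% and 0.855% of the reads, with a log2 ratio of 0.11 (-0.02 to 0.25). Most of these reads were miR-486a-5p, so the sum mainly follows that row. With both miR-486 rows counted, 6 rows had at least 10 reads. All 6 were higher in HC-Exo, beside 56.2% of the 340 rows, and their median log2 ratio was 0.30, beside 0.10. The red cell miR-451a had 17 and 35 reads, a log2 ratio of 0.67 (-0.21 to 1.59), and miR-486a-5p had 654 and 875, with 0.04 (-0.10 to 0.19). Of the leukocyte miRNAs, miR-223-3p had 43 and 94 reads with a log2 ratio of 0.75 (0.22 to 1.31), and miR-150-5p had 83 and 110 with 0.03 (-0.39 to 0.46). The 5p strand of miR-142a had 12 and 23 reads and 0.56 (-0.50 to 1.70), and miR-142a-3p had 2 in each library. The blood rows thus differed among themselves. The most read rows, miR-486a-5p and miR-150-5p, had ratios near 1, and the log2 ratio of miR-16-5p was larger than that of miR-486a-5p by 0.69 (0.34 to 1.06). Against the red cell miR-451a, the difference of miR-16-5p was 0.07, with an interval from -0.92 to 1.02 that included 0. The part of blood cells in the family's reads was not tested. The family total was compared with 8 other sets or rows. The row miR-16-5p was compared with each of the reference miRNAs, miR-322-5p, miR-451a and miR-486a-5p. The intervals were not widened for the number of comparisons.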

How the data were processed

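Small RNA of exosomes was sequenced by the authors on an Illumina sequencer after an Illumina small RNA kit. The authors deposited raw read counts per mature miRNA under mouse names for these rat samples. The submitters' processing notes name Bowtie2 and the builds mm9 and GRCm38 with no role. Trimming and mismatches are not given in the sources used here. The authors also deposited a normalized signal, which is the count times 12.1 in NC-Exo and 9.23 in HC-Exo (within 0.1% in all but 1 row, not of the family) and served as an alternative scaling. A deposited comparison by the authors, with fold changes, p-values and rescaled counts, was not used.

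RPM was computed with the library totals. Ratios of HC-Exo over NC-Exo have 95% exact intervals from the binomial share of HC-Exo in a row's reads, shares have Clopper-Pearson intervals, and differences of log2 ratios have exact conditional intervals of the odds ratio. A library under 3 reads was set at 3 for counts of rows, which used rows with at least 10 reads over both libraries and a 2-fold limit. Statistics used Python 3.11.15, scipy 1.17.1, numpy 2.4.6 and pandas 2.3.3, and scalings R 4.3.3, edgeR 4.0.16 and DESeq2 1.42.0. Alternatives were these scalings, added reads of 0.5 or 5, other filters and a 1.5-fold limit. The members and lists were chosen with earlier results of these data known. All family and same-seed rows are named, with the rows next to the 5p members in HC-Exo rank and the most read or defining rows of each list.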

Additional observations from a re-analysis of the deposited data

How the results depend on the processing

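No paired analysis was possible because each condition has 1 library, which also means that leaving out a replicate could not be tried. The family total kept its direction under all 10 alternatives, with log2 ratios from 0.65 to 0.84, and its interval stayed above 0 under each scaling. Of these alternatives, 3 (5p rows, no miR-16-5p, rows with at least 10 reads in each library) were chosen after seeing the data. The log2 ratio of miR-16-5p ran from 0.61 to 0.74. Upper-quartile scaling moved every log2 ratio by -0.12, the most of the 5 scalings. With at least 10 reads in each library, 0 family rows were past 2-fold, because the 3 rows past it had fewer in NC-Exo. Over 5p rows only, the share of miR-16-5p was 88.5% for NC-Exo and 82.7% for HC-Exo, because the 3p rows leave the total. Depth limits miR-195a-5p, miR-497a-5p and miR-16-2-3p, whose intervals of the log2 ratio include 0.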

Other observations

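Ordered by reads in HC-Exo, miR-15b-5p with 24 reads stood between miR-93-3p with 25 and miR-184-3p with 24. Next to miR-497a-5p with 14 reads were miR-425-3p with 14 and miR-125b-1-3p with 13. Beside miR-15a-5p with 8 reads were miR-155-5p and miR-188-5p with 8 each, and beside miR-195a-5p with 6 reads were miR-191-3p and miR-2137 with 6 each. At these low counts many rows are tied, so the neighbours in rank are only examples of the level.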
